A study of Mus musculus with 2 samples.

Results

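The pigment epithelium ion channels and transporters described here are 9 of the 31053 genes counted in the deposited matrices. They were taken by symbol. They are the channels Best1, Kcnj13 and Trpm3, the amino acid transporter Slc6a15, the cotransporter Slc12a2, the bicarbonate carriers Slc4a2 and Slc4a4, and the sodium pump subunits Atp1b1 and Atp1b2. Single-cell transcript counts came from the eye cups of mice at birth (postnatal day 0). The control library was a pool of 3 eye cups of genotype Myrf fl/fl, and the mutant library was a pool of 3 eye cups of genotype Rx>cre Myrf fl/fl. Both carried loxP-flanked (fl) copies of Myrf, a gene for a membrane-bound transcription factor, and the mutant alone carried Rx>cre, a cre transgene that is switched on in the early eye field and so reaches the neural retina as well as the retinal pigment epithelium (RPE). Each genotype was 1 library, so no difference below has a replicate check, and the intervals given are 95% intervals of counting error only.

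The RPE lies against the tips of the photoreceptors and separates them from the blood supply of the choroid. Its channels, cotransporters and pumps move chloride, potassium, bicarbonate and sodium between its apical and basal faces, and water follows, which keeps the retina attached and sets the ionic makeup of the space around the photoreceptors. Unlike most epithelia, the mature RPE holds its sodium pump on the apical face. Mutations in BEST1 and KCNJ13 cause human retinal disease.

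The control library held 14305 barcodes with a median of 4201 unique molecular identifiers (UMIs, each marking a captured transcript), and the mutant library held 12222 barcodes with a median of 4952. After filtering, 12485 control and 10813 mutant cells remained, and 47 barcodes occurred among the kept cells of both libraries. Clustering was made without the 9 genes and named 1 cluster RPE-like, with 486 control cells and 203 mutant cells (3.89% and 1.88% of kept cells). It was led by Ttr and Slc16a8, and 9 of 12 RPE markers counted for it. Its cells were shallower in the control, with a median of 2507 UMIs against 10566 in the mutant. Ratios of the 9 genes whose estimates differed with depth are given at matched depth beside them. At a clustering resolution of 2 the class split. The RPE-like name then stayed with 136 control and 94 mutant cells of high depth (medians of 15296.5 and 17728.5 UMIs), and 71.8% of the control and 52.7% of the mutant RPE-like cells lay in a cluster left unnamed, whose leading genes included Pcp4, Trpm1 and Mlana (medians of 1640 and 3105 UMIs). The genotypes thus divided unequally between these parts. Rpe65, a defining marker of the mature RPE, had 12 UMIs in the control RPE-like cells and 0 in the mutant. The summed markers of mesenchyme took 1631 counts per 1000000 UMIs of the class (CPM) in control and 164 CPM in mutant RPE-like cells, with none of the 8 markers at 0 in either library, and those of lens took 363 and 75.9 CPM, with 3 of 8 at 0 in the mutant. Markers of Schwann cells took 90.9 and 10.5 CPM, with 1 of 6 at 0 in each library, and those of the ciliary margin 117 and 38.2 CPM, with none of 6 at 0. Other lists were higher in the mutant, namely retinal progenitor (1318 and 1659 CPM), mural (259 and 316 CPM), retinal ganglion (50.4 and 80.5 CPM) and surface epithelium (46.7 and 81.8 CPM). The 12 RPE markers themselves summed to 29448 CPM in control and 18201 CPM in mutant RPE-like cells. The part of these transcripts in the results below was not tested.

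Myrf itself, the targeted gene, had 743 UMIs in the control RPE-like cells (231 CPM, interval 215 to 249) and 64 UMIs in the mutant (26.8 CPM, interval 20.7 to 34.3). The log2 ratio of mutant over control was -3.06 (interval -3.50 to -2.74) with 1 CPM added to both levels. The plain ratio of the levels was 8.62-fold lower in the library labelled mutant, and the other folds below are such plain ratios of CPM. Counting at the 3′ end can still register a transcript that lacks an internal exon.

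In the GRCm38 mouse genome all 9 genes are protein coding in GENCODE release M21. Best1 spans chr19:9985174-10001633 on the minus strand, Kcnj13 chr1:87386363-87394729 on the minus strand, and Trpm3 chr19:22139046-22995410 on the plus strand. Slc6a15 spans chr10:103367783-103419377 on the plus strand. Slc4a2 spans chr5:24423837-24440950 and Slc4a4 chr5:88886818-89239653, also on the plus strand. Atp1b1 spans chr1:164437109-164458355 and Atp1b2 chr11:69599736-69605942, both on the minus strand. The position of Slc12a2 is not given here. No annotated exon of another gene on the same strand overlaps any of them. Exons of a gene on the opposite strand overlap Kcnj13 (Gigyf2), Slc4a2 (Fastk and Gm22333), Atp1b1 (Nme7) and Trpm3 (C330002G04Rik and Gm27151), and reads of such pairs cannot be told apart where strand was not used in counting, which is not given in the sources used here. Gigyf2 had 34.6 CPM in control RPE-like cells and 39.7 CPM in all other control cells, Fastk 35.8 and 37.2 CPM, and Nme7 23.0 and 19.7 CPM. In the mutant the same pairs of values were 41.9 and 46.5 CPM for Gigyf2, 52.8 and 36.5 CPM for Fastk, and 26.4 and 23.4 CPM for Nme7, so Fastk was higher in the RPE-like cells of that library.

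The 250 bases before the transcription start were read for the 6 genes with an entry in the RefSeq promoter table (GRCm38.p6), 9 windows in all. They were searched on both strands for 4 kinds of motif that bear on pigment cells or on the targeted gene. These were the MYRF motif (CTGGCAC or CTGGTAC), the M-box of MITF (TCATGTG), the OTX2 motif (TAATCC) and the E-box CACGTG, and no motif contains another. A match was present in 3 windows, which are shown for that reason, each 5′ to 3′ along the gene with the match in capitals. They are Kcnj13 (chr1:87394730-87394979, minus strand), Best1 (chr19:10001634-10001883, minus strand) and Atp1b1 (chr1:164458356-164458605, minus strand).
Kcnj13: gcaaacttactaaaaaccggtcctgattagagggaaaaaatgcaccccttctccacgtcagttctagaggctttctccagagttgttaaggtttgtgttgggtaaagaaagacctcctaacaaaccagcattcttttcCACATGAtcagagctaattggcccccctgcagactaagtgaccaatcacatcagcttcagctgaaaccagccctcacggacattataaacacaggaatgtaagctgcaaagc
Best1: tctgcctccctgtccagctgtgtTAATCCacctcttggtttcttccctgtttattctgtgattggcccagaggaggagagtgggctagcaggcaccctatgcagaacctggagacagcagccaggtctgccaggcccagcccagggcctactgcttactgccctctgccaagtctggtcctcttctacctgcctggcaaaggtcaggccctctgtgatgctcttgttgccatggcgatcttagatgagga
Atp1b1: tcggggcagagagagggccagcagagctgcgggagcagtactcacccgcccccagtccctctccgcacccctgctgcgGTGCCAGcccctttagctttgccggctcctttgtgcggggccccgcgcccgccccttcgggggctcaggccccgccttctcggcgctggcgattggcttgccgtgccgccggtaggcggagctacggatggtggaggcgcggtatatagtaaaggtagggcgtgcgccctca
The capitals in Kcnj13 are an M-box read from the opposite strand and begin 112 bases before the start. Those in Best1 are an OTX2 motif on the gene's strand, 227 bases before the start, and those in Atp1b1 are a MYRF motif read from the opposite strand, 172 bases before the start. Of all 32851 promoter windows of this length, 3.25% held the M-box, 6.25% the OTX2 motif, 4.19% CTGGCAC, 1.83% CTGGTAC and 6.02% CACGTG. A match is a string of letters, not a bound site.

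Across the eye cup, 6 of the 9 genes had their highest level in RPE-like cells in both libraries, when 12 cell classes of at least 50 cells per library were compared. These were Kcnj13, Trpm3, Slc6a15, Slc4a2, Slc4a4 and Atp1b1, and for each of them the RPE-like interval lay above those of all 11 other classes. In smaller classes, given with the genes, Kcnj13 and Slc4a4 reached higher levels. Over all genes, 10.6% of 16092 in the control and 10.4% of 15994 in the mutant were at least 2-fold higher in RPE-like cells than in all other cells. Trpm3, Slc6a15, Slc4a2 and Atp1b1 were also highest there when all 36 control and 35 mutant clusters of at least 15 cells were compared, unnamed clusters included. Slc12a2, Atp1b2 and Best1 had their highest levels elsewhere.

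**Figure D1:**
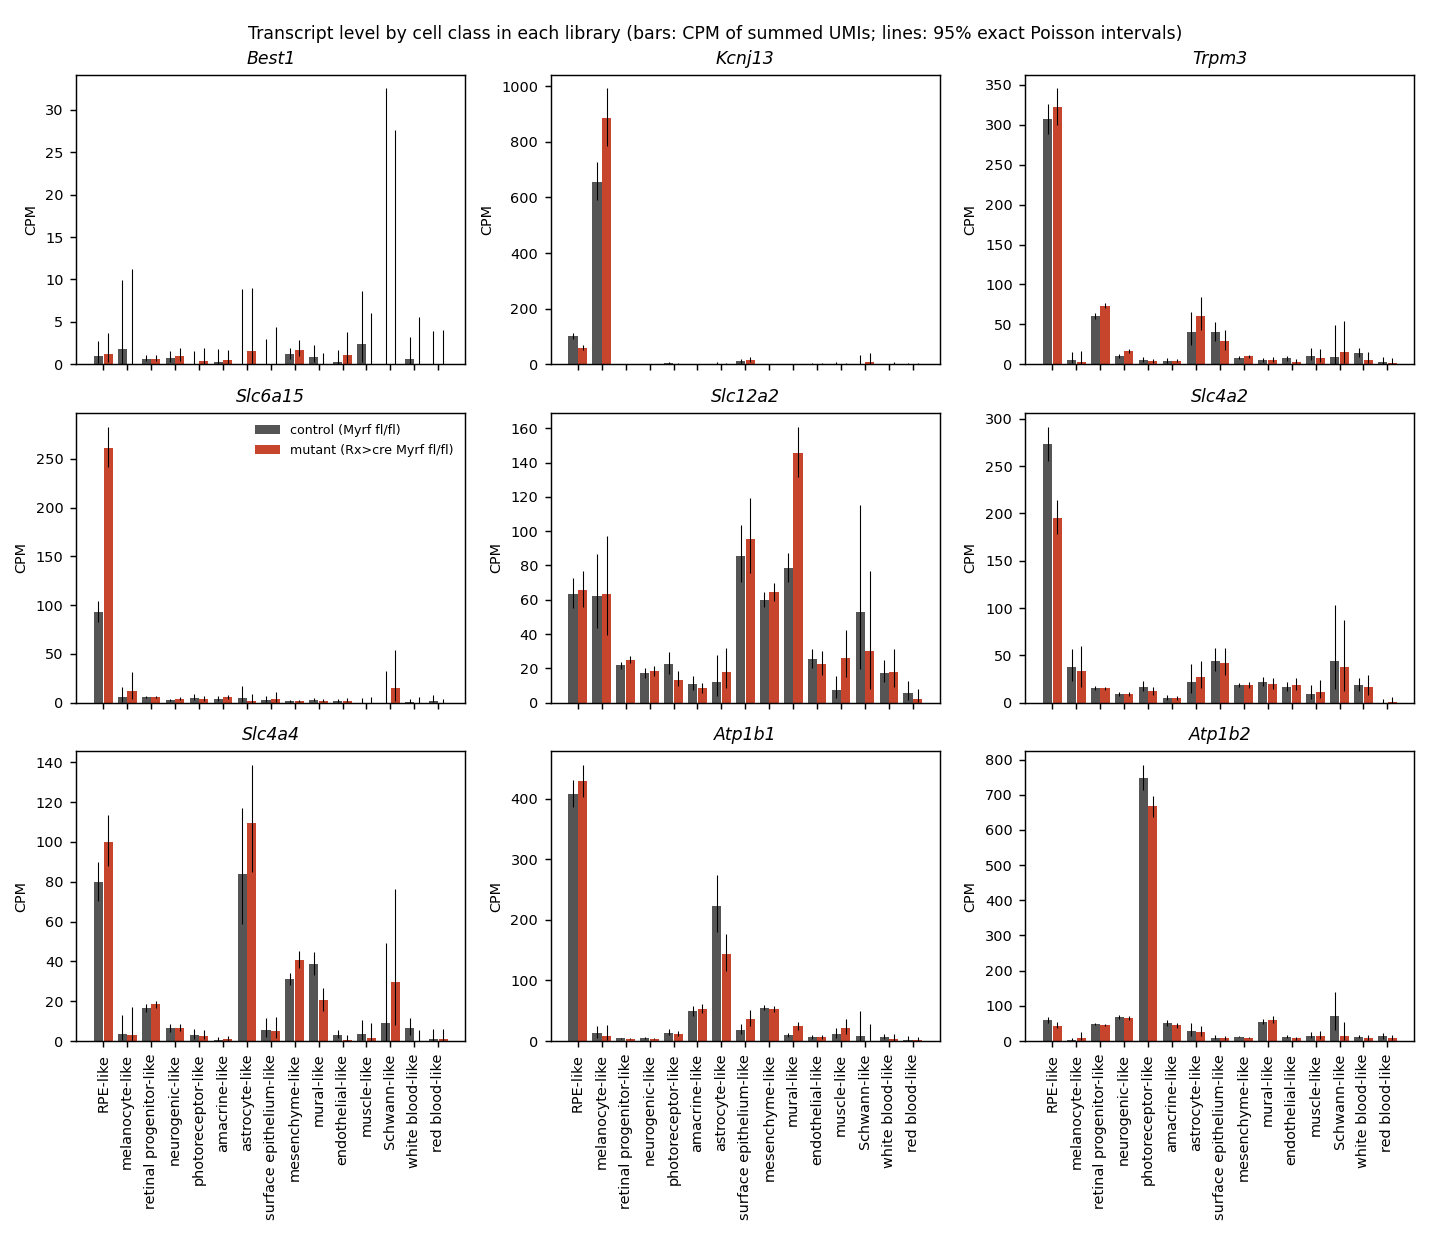
Level of each gene in CPM (vertical axes, each with its own scale starting at 0) by cell class, with grey bars for the control library, red bars for the mutant library and lines for 95% exact Poisson intervals. RPE-like bars are the tallest for Trpm3, Slc6a15, Slc4a2 and Atp1b1, while Kcnj13 is tallest in the 30 and 18 melanocyte-like cells and Atp1b2 in photoreceptor-like cells.

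Among the channels, Kcnj13 encodes the inwardly rectifying potassium channel Kir7.1 of the apical RPE membrane. In control RPE-like cells it had 323 UMIs (101 CPM, interval 89.9 to 112) and in mutant RPE-like cells 142 UMIs (59.5 CPM, interval 50.2 to 70.2). The log2 ratio was -0.75 (interval -1.05 to -0.47), a level 1.69-fold lower in the mutant, with intervals that did not overlap. The estimate of this difference varied with the depth of the cells, but the interval of the shallower cells covered the deep value. In RPE-like cells over 4000 UMIs the levels were 106 and 59.5 CPM, a log2 ratio of -0.82, and in cells of up to 4000 UMIs they were 70.1 and 60.8 CPM, a log2 ratio of -0.20 (interval -1.75 to 1.07) that rested on 32 and 6 UMIs. With every cell thinned to 1000 UMIs and then summed, so that deep cells weighed no more than shallow ones, the log2 ratio was 0.07. Within the control alone, the deeper RPE-like cells had more Kcnj13 than the shallower ones by 0.58 on the log2 scale (interval 0.06 to 1.17). In the parts made at resolution 2 the log2 ratio of mutant over control was -0.79 (RPE-like) and -0.95 (unnamed cluster). Thinned to 1000 UMIs, only 29 of 387 control and 13 of 178 mutant cells held a Kcnj13 UMI. No interval was computed for the thinned ratio. Thinned to 2000 UMIs, 17.2% of control cells (interval 13.0 to 22.2) and 11.25% of mutant cells (interval 6.81 to 17.2) held one. The lower Kcnj13 level of the mutant was thus present in the deep cells, and the thinned sums were too small to show whether it remained.

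Kcnj13 was higher still in melanocyte-like cells, the pigment cells of the choroid, which numbered 30 in the control against 18 in the mutant and fell under the minimum of 50 cells. They held 369 Kcnj13 UMIs in the control (655 CPM, interval 590 to 726) against 292 in the mutant (885 CPM, interval 786 to 992), which was 47.4% and 58.9% of all Kcnj13 UMIs of the library. The log2 ratio there was 0.43 (interval 0.21 to 0.66), against -0.75 in the summed RPE-like cells and 0.07 in the thinned ones. Markers of melanocytes in the RPE-like cells were looked at because of this level. Of the 7 markers, Pax3, which defines melanocytes against RPE, was at 0 in RPE-like cells of both libraries and Erbb3 was at 2.18 and 2.10 CPM. Sox10 was at 72.2 CPM in control and 3.77 CPM in mutant RPE-like cells, and the list summed to 1468 and 1103 CPM, most of it Mlana (1215 and 978 CPM). Outside the pigment cells the next level was that of surface epithelium-like cells, at 11.2 and 14.4 CPM.

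Trpm3, a cation channel of the transient receptor potential family, had 985 UMIs in control RPE-like cells (307 CPM, interval 288 to 327) and 768 in mutant ones (322 CPM, interval 299.7 to 346). The log2 ratio was 0.07 (interval -0.07 to 0.21), which includes 0. It was 0.03 both in cells of up to 4000 UMIs (interval -0.68 to 0.67) and in those over 4000 UMIs, and 0.29 with cells thinned to 1000 UMIs. Within the control, deep cells had more Trpm3 than shallow ones by 0.41 (interval 0.12 to 0.71). In cells of up to 2000 UMIs the log2 ratio of mutant over control was -0.46 with clusters made again (45 mutant cells). With the clusters kept it was -0.57 (43 mutant cells), and neither value has an interval. Retinal progenitor-like cells came next, with 60.2 CPM in the control against 73.5 CPM in the mutant. They were the other main holder of Trpm3 in the eye cup. Being more numerous, they held 41.4% of the control's and 56.3% of the mutant's Trpm3 UMIs, against 37.3% and 26.6% in RPE-like cells. In these progenitor-like cells the log2 ratio was 0.28 (interval 0.18 to 0.40), and in neurogenic-like cells, which were at 10.4 and 16.6 CPM, it was 0.63 (interval 0.26 to 1.10).

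Trpm3 also hosts a microRNA gene, Mir204, on the same strand and outside its annotated exons, at chr19:22750605-22750672. Mature miR-204-5p is shown because it is a well-known RPE microRNA carried by a Trpm3 transcript, with its seed (bases 2 to 8) in capitals and the sequence from RefSeq (GRCm38.p6).
mmu-miR-204-5p: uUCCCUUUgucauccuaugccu
A 3′ count of Trpm3 does not measure the mature microRNA.

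Best1 encodes bestrophin, a calcium-activated anion channel of the basolateral RPE membrane. It had 3 UMIs in control and 3 UMIs in mutant RPE-like cells, or 0.93 CPM (interval 0.19 to 2.73) and 1.26 CPM (interval 0.26 to 3.68). All other cells had 0.72 CPM in the control against 0.79 CPM in the mutant, inside both intervals. No enrichment of Best1 in RPE-like cells was thus detectable at this depth and age, and no ratio between genotypes could be read.

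Of the 9 genes, Slc6a15 differed most between the genotypes in RPE-like cells. It encodes a sodium-dependent carrier of neutral amino acids such as leucine and proline, of the SLC6 family. Control RPE-like cells held 298 UMIs (92.8 CPM, interval 82.6 to 104) and mutant ones 624 UMIs (262 CPM, interval 242 to 283), more than the control in fewer cells. The log2 ratio was 1.49 (interval 1.29 to 1.70), a 2.82-fold higher level in the mutant. Of the 11082 genes with at least 20 UMIs in RPE-like cells, 0.984% had a higher ratio.

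The Slc6a15 difference was present at each depth. In RPE-like cells of up to 4000 UMIs the levels were 96.4 and 223 CPM (log2 ratio 1.20, interval 0.40 to 1.98), and in those over 4000 UMIs they were 92.2 and 263 CPM (log2 ratio 1.5, interval 1.30 to 1.73). At resolution 2 the log2 ratio was 1.69 in the RPE-like part and 1.51 in the unnamed cluster. Within the control, the deep and shallow cells had nearly the same level, with a log2 difference of -0.06 (interval -0.53 to 0.43). When only cells that held Xist but nothing from the Y chromosome were summed, the log2 ratio was 1.95 (81 control and 79 mutant cells), and in cells that held Y-linked UMIs but not Xist it was 1.73 (126 and 36 cells), so both sexes in the pools showed the higher level. Of the library's Slc6a15 UMIs, 53.1% in the control against 70.0% in the mutant were in RPE-like cells, and retinal progenitor-like cells, next among classes of at least 50 cells, were at 5.78 and 6.06 CPM. An alternative gate on pigment genes that also left out cells with Pax3, Mlana or Kit kept 137 control and 18 mutant cells and gave a log2 ratio of 0.09. In that gate Trpm3 was at -1.23, Atp1b1 at -0.90 and Slc4a4 at 0.95. Its cells were shallow, with medians of 1228 and 1123.5 UMIs, and no intervals were computed, so little can be read from these ratios. RPE-like cells themselves held Mlana and Kit, and the same gate leaving out only cells with Pax3 kept 501 and 185 cells and gave 1.63.

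Slc12a2, the sodium-potassium-chloride cotransporter NKCC1, loads chloride into the RPE cell. It had 204 UMIs in control RPE-like cells (63.5 CPM, interval 55.1 to 72.9) and 157 in mutant ones (65.8 CPM, interval 55.9 to 77.0), with a log2 ratio of 0.05 (interval -0.26 to 0.36). It was 0.07 in cells over 4000 UMIs and -0.64 in those of up to 4000 UMIs (interval -2.62 to 0.86), where it rested on 29 and 4 UMIs. The gene was not particular to the pigment cells. In the control the highest classes were surface epithelium-like at 85.8 CPM and mural-like at 78.5 CPM, whose intervals overlapped each other, and mesenchyme-like cells were at 60.0 CPM, close to the RPE-like level. In the mutant, mural-like cells were highest at 146 CPM (interval 131 to 161). This class holds a larger cluster whose name is uncertain, as described with the other classes, and its smaller cluster, led by Higd1b and Rgs5, was at 195 CPM for the control against 239.9 CPM for the mutant. RPE-like cells held 8.60% of the control's and 7.13% of the mutant's Slc12a2 UMIs.

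Of the bicarbonate carriers, Slc4a2 was lower and Slc4a4 higher in the mutant in the sums over all RPE-like cells. Slc4a2, the chloride-bicarbonate exchanger AE2, had 877 UMIs in control RPE-like cells (273 CPM, interval 255 to 292) and 466 in mutant ones (195 CPM, interval 178 to 214). The log2 ratio was -0.48 (interval -0.65 to -0.32), a 1.40-fold lower level in the mutant with intervals apart, though within the 1.5-fold limit used for counts of genes. As for Kcnj13, the estimate differed with depth, but the interval of the shallower cells covered the deep value. The log2 ratio was -0.57 over 4000 UMIs (interval -0.74 to -0.40) and 0.13 up to 4000 UMIs (interval -0.73 to 0.90), and deep control cells exceeded shallow ones by 0.88 (interval 0.54 to 1.26). With cells thinned to 1000 UMIs the log2 ratio was -0.44, and at resolution 2 it was -0.56 (RPE-like) and -0.45 (unnamed cluster). Surface epithelium-like cells came next, at 44.1 and 41.9 CPM.

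Slc4a4, the sodium-bicarbonate cotransporter NBCe1, had 256 UMIs in control RPE-like cells (79.7 CPM, interval 70.3 to 90.1) and 239 in mutant ones (100.2 CPM, interval 87.9 to 114). The log2 ratio was 0.33 (interval 0.07 to 0.59), so the mutant level was 1.26-fold higher while the 2 CPM intervals overlapped. It was 0.38 in cells over 4000 UMIs (interval 0.10 to 0.66) and 0.18 in those of up to 4000 UMIs (interval -0.92 to 1.15). In cells with Xist only it was 0.34 and in cells with Y-linked UMIs only 0.48, and both intervals included 0. Astrocyte-like cells, only 31 in the control against 33 in the mutant, had as much, at 84.1 CPM (interval 58.6 to 117) and 109 CPM (interval 84.9 to 139). Mural-like cells were at 38.5 and 20.4 CPM and mesenchyme-like cells at 31.1 and 40.7 CPM.

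The pump subunits separated by cell type. Atp1b1 encodes the β1 subunit, which brings the catalytic α subunit of the sodium pump to the membrane. It had 1312 UMIs in control RPE-like cells (409 CPM, interval 387 to 431) and 1023 in mutant ones (429 CPM, interval 403 to 456), a log2 ratio of 0.07 (interval -0.05 to 0.19). The ratio was 0.04 in cells over 4000 UMIs, -0.32 in those of up to 4000 UMIs (interval -1.001 to 0.29) and 0.27 with thinning to 1000 UMIs. At resolution 2 it was 0.11 in the RPE-like part and -0.54 in the unnamed cluster. Deep control cells exceeded shallow ones by 0.41 (interval 0.16 to 0.67). RPE-like cells held 49.8% of the control's and 48.3% of the mutant's Atp1b1 UMIs, from 3.89% and 1.88% of the cells. Astrocyte-like cells were next at 223 and 143 CPM, and amacrine-like cells were at 49.3 and 53.4 CPM.

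Atp1b2 encodes the β2 subunit, known from photoreceptors and glia. It was highest in photoreceptor-like cells, at 748 CPM in the control (interval 714 to 784) against 667 CPM in the mutant (interval 638 to 697). RPE-like cells had 192 UMIs in the control (59.8 CPM, interval 51.6 to 68.9) against 105 in the mutant (44.0 CPM, interval 36.0 to 53.3), below the summed level of all other cells in each library (78.2 and 84.8 CPM). The log2 ratio in RPE-like cells was -0.43 (interval -0.80 to -0.09). It was -0.42 in cells over 4000 UMIs (interval -0.80 to -0.06) and -0.59 in those of up to 4000 UMIs (interval -2.57 to 0.92, from 28 and 4 UMIs). Among the latter, cells of up to 2000 UMIs gave 0.18 on at most these 4 mutant UMIs, from which no direction can be read. In photoreceptor-like cells the log2 ratio was -0.17 (interval -0.26 to -0.07). The β1 subunit thus had its highest level in the RPE-like cells and the β2 subunit in the photoreceptor-like cells, in both libraries.

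Of the 8 genes with at least 20 UMIs in RPE-like cells, 1 was lower in the mutant by at least 1.5-fold (Kcnj13) and 1 was higher (Slc6a15), and the median log2 ratio was 0.06. Over all 11082 genes tested in these cells, 11.9% were lower and 7.52% higher by that size, and the median was -0.01. With 1 gene of 8 in each direction, the genes were close to this background. Best1 had too few UMIs to be counted.

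**Figure D2:**
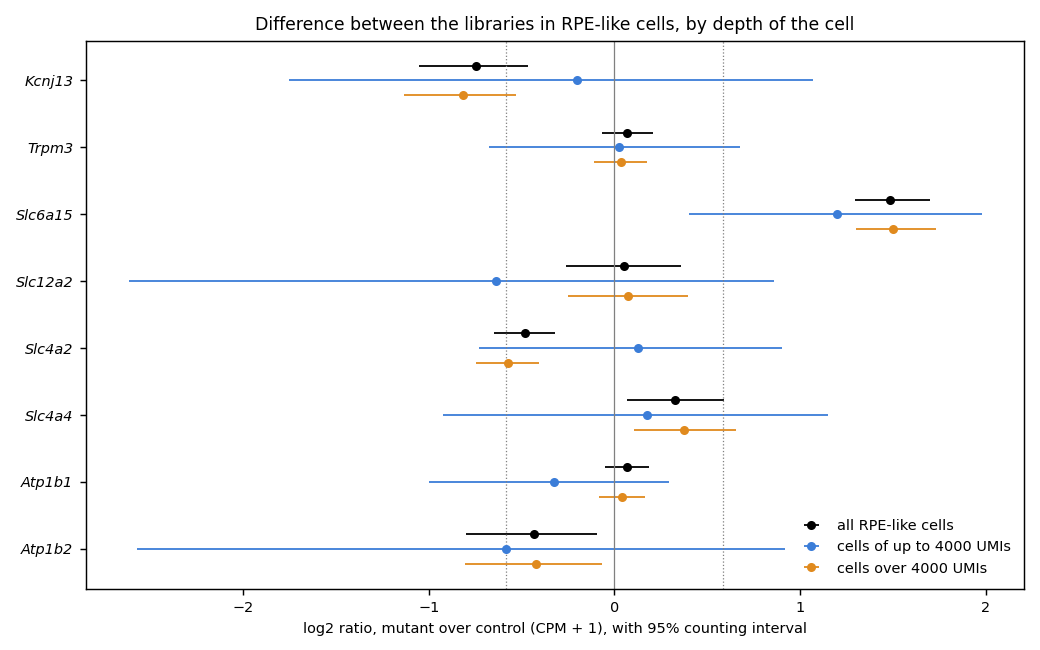
Log2 ratio of mutant over control in RPE-like cells (horizontal axis, CPM with 1 added) for the 8 genes with at least 20 UMIs, in all cells (black), cells of up to 4000 UMIs (blue) and cells over 4000 UMIs (orange), with lines for 95% counting intervals and dotted lines at 1.5-fold. Slc6a15 lies to the right of 0 at both depths (1.20 and 1.5), whereas Kcnj13 lies beyond the left dotted line only in all cells and in the deep cells.

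The share of cells with a transcript was compared after each cell was thinned to 1000 UMIs, which left 387 control and 178 mutant RPE-like cells. Slc6a15 was seen in 8.53% of control cells (interval 5.94 to 11.8) and 24.2% of mutant cells (interval 18.1 to 31.1), and it alone had intervals apart. With thinning to 500 UMIs, which kept all 486 and 203 cells, its shares were 5.14% (interval 3.36 to 7.50) and 11.3% (interval 7.32 to 16.5), and those intervals overlapped. Kcnj13 was seen in 7.49% and 7.30%, Trpm3 in 21.4% and 24.2%, Slc12a2 in 5.68% and 5.62%, and Slc4a2 in 17.8% and 14.0%. Slc4a4 was seen in 8.27% and 10.1%, Atp1b1 in 27.4% and 34.3%, and Atp1b2 in 4.13% and 3.37%. Without thinning, the deeper mutant cells had the higher share for each of the 9 genes, for example 35.5% against 27.6% for Kcnj13 and 60.1% against 29.6% for Slc6a15. Unthinned shares were therefore not compared further.

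Free RNA in the droplets was gauged from red blood-like cells, whose medians were 3579 UMIs in the control against 11715 in the mutant. After the same thinning (113 control and 84 mutant cells) their shares were 0% in both libraries for Kcnj13, Slc4a4, Atp1b1 and Best1, with exact upper limits of 3.21% in the control and 4.30% in the mutant. They were at most 0.885% for Trpm3 and Slc6a15, and 1.19% for Slc4a2. For Slc12a2 they were 2.65% and 0%, and for Atp1b2 3.54% and 1.19%. The RPE-like intervals of Atp1b2 and Slc12a2 overlapped these in both libraries, and that of Kcnj13 in the mutant, so those shares were not above this background beyond counting error. Best1 was in 0 of 387 and 0 of 178 thinned cells, with exact upper limits of 0.949% and 2.05%.

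**Figure D3:**
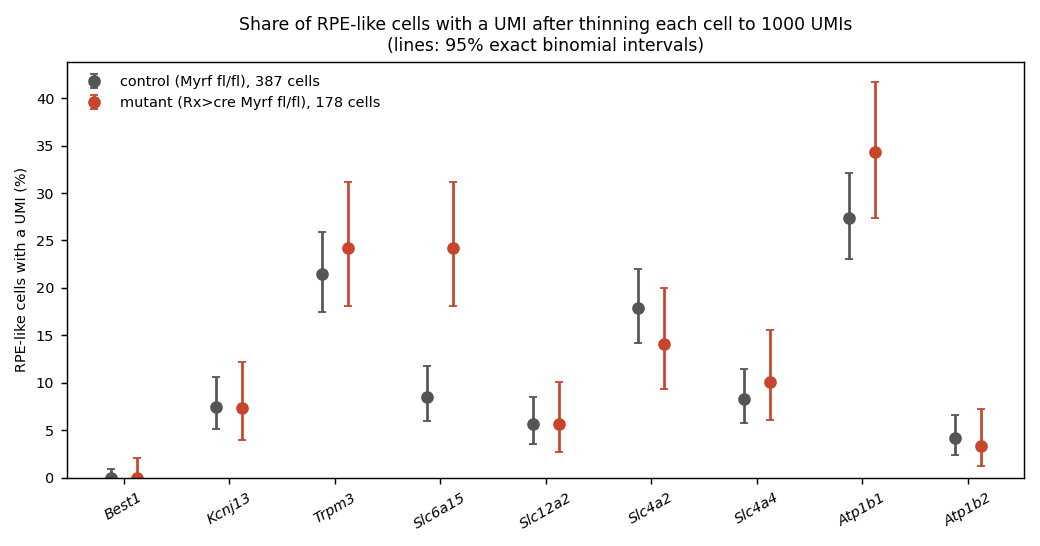
Share of RPE-like cells with at least 1 UMI of each gene (vertical axis, percent) after thinning every cell to 1000 UMIs, for 387 control cells (grey) and 178 mutant cells (red), with lines for 95% exact binomial intervals. The intervals are apart for Slc6a15 (8.53% and 24.2%) and overlap for the other genes, and with thinning to 500 UMIs those of Slc6a15 overlap too.

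The number of the 9 genes seen in each single cell was also counted. After thinning, at least 1 of the 9 was seen in 64.9% of control and 74.7% of mutant RPE-like cells, and at least 3 in 8.27% (interval 5.72 to 11.5) and 11.2% (interval 7 to 16.8). In retinal progenitor-like cells at least 3 were seen in 0.0275% and 0.0471%. Photoreceptor-like cells had at least 1 in 53.5% and 51.0% of cells, mostly Atp1b2 (50.1% and 47.5%), but at least 3 in only 0.451% and 0.131%. These shares depend on the levels of the genes in each class, and whether the genes occur together beyond that was not tested.

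The other classes were compared between the libraries in the same way. In retinal progenitor-like cells all 9 had at least 20 UMIs and 0 passed the limit in either direction, beside 1.92% of genes lower and 1.71% higher. In mural-like cells, named from markers of the cells of vessel walls, 6 were measured, of which 1 was lower (4.34% of all genes) and 2 were higher (5.39%). Slc12a2 went from 78.5 CPM in the control to 146 CPM in the mutant there (log2 ratio 0.88, interval 0.68 to 1.10), Atp1b1 from 9.35 to 24.5 CPM (1.30, interval 0.81 to 1.99), and Slc4a4 from 38.5 to 20.4 CPM (-0.89, interval -1.39 to -0.47). Mural-like cells came from 2 clusters, and the name of the larger is uncertain, since at a clustering resolution of 0.5 a cluster also led by Col10a1 was named mesenchyme-like. In the larger one (329 and 184 cells), which was led by genes that are not mural markers, such as Col10a1 and Alpl, the log2 ratios were 1.06 for Slc12a2, 0.81 for Atp1b1 and -0.72 for Slc4a4. In the smaller (84 and 66 cells) they were 0.30 and 1.53 for the first 2 genes, and Slc4a4 had 5 and 0 UMIs. In photoreceptor-like cells 1 of 6 measured genes was lower (4.15% of all genes) and 0 were higher (4.47%), and this was Slc12a2, at 22.4 and 13.4 CPM (-0.70, interval -1.38 to -0.11).

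Trpm3 was past the limit in 3 further classes. In neurogenic-like cells it was the 1 gene of 7 that was higher (2.73% of all genes, with 2.7% lower), in white blood-like cells it was the 1 of 4 that was lower (13.4%, with 7.83% higher), at 14.1 and 6.01 CPM, and in endothelial-like cells it was lower at 7.41 and 3.19 CPM together with Atp1b2 at 12.2 and 7.45 CPM, 2 of 5 measured genes (8.6%, with 3.7% higher). In muscle-like cells 2 of 3 were higher (12.2%, with 9.95% lower), namely Slc12a2 and Atp1b1, and in surface epithelium-like cells Atp1b1 was the 1 of 5 that was higher (8%, with 11.9% lower). These sums were small, and the interval of the log2 ratio included 0 for Trpm3 in white blood-like and endothelial-like cells, for Atp1b2 in endothelial-like cells and for Atp1b1 in muscle-like cells. None passed the limit among the 8 measured in mesenchyme-like cells (1.98% lower and 1.93% higher), the 6 in amacrine-like cells (3.58% and 4.74%) and the 1 in red blood-like cells (5.82% and 28.6%).

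The other genes of the same transport systems were taken from lists of 133 genes, of which 77 had at least 20 UMIs in RPE-like cells. Of these, 26 were lower in the mutant by at least 1.5-fold and 5 were higher, beside 11.9% lower and 7.52% higher over all genes, and the median log2 ratio was -0.28, beside -0.01 for all genes. The counts of the single lists below stand beside the same background. In cells over 4000 UMIs 24 of 76 were lower (11.5% of all genes) and 6 higher (8.98%), and in those of up to 4000 UMIs 12 of 27 were lower (24.6%) and 4 higher (14.5%). Each transport gene named below had the same sign in both depth ranges as in the sum, though Fxyd1 was at -0.32 and Slc6a9 at -1.83 in the shallower cells, where most named genes had 5 or fewer mutant UMIs. The lists were chosen with earlier results of these data known. In the anion channel list 8 of 18 measured genes were lower and 0 higher (median -0.52), and in the cation channel list 6 of 15 were lower and 0 higher (median -0.32). Potassium channels ran the other way, with 4 of 7 higher and 0 lower (median 0.62).

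The SLC6 carriers other than Slc6a15 were lower in the mutant in 5 of 7 cases and higher in 0 (median -0.69). Slc6a9, the glycine transporter GLYT1, had 592 UMIs in the control against 140 in the mutant (log2 ratio -1.63, interval -1.93 to -1.38). Slc6a20a, a proline carrier, had 122 and 4 UMIs (-3.86, interval -6.40 to -3.11), and Slc6a13, the GABA and taurine carrier GAT2, had 176 and 52 (-1.29, interval -1.80 to -0.88). The direction of Slc6a15 was thus opposite to that of these 5 family members in the same cells.

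Among potassium channel genes, Kcne2, an accessory subunit, had 26 UMIs in the control against 119 in the mutant (log2 ratio 2.48, interval 2.00 to 3.30), Kcnk1 had 65 and 85 (0.79, interval 0.33 to 1.31), and Kcnq5 had 48 and 56 (0.62, interval 0.07 to 1.24). Kcnj13, which belongs to the same functional group, was lower in the sums. Of the anion channel genes, Clic4 had 88 and 25 UMIs (-1.31, interval -2.09 to -0.73) and Ttyh1 had 59 and 21 (-0.98, interval -1.85 to -0.32). Both were higher in other cells than in RPE-like cells. So was Kcnk1, at 56.4 and 73.0 CPM in other cells against 20.2 and 35.6 CPM in RPE-like cells. Cacna1c, an L-type calcium channel pore subunit, had 70 and 21 UMIs (-1.22, interval -2.09 to -0.59).

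Of the other sodium pump genes, 3 of 8 were lower and 1 was higher (median -0.10). Atp1b3, a further β subunit, had 284 control UMIs against 278 for the mutant (log2 ratio 0.39, interval 0.15 to 0.64). The small FXYD regulators of the pump differed more. Fxyd3 had 157 and 2 UMIs (-4.76, interval -8.92 to -3.99), Fxyd1 had 341 and 117 (-1.10, interval -1.43 to -0.81) and Fxyd6 had 60 and 97 (1.08, interval 0.64 to 1.61). Fxyd6 was higher in other cells (111 and 131 CPM) than in RPE-like cells (18.7 and 40.7 CPM).

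Cation-chloride cotransport and its kinases had 1 of 7 genes lower and 0 higher (median -0.05), bicarbonate and proton transport had 3 of 13 lower and 0 higher (median -0.19), and both measured aquaporins lay within the limit.

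**Figure D4:**
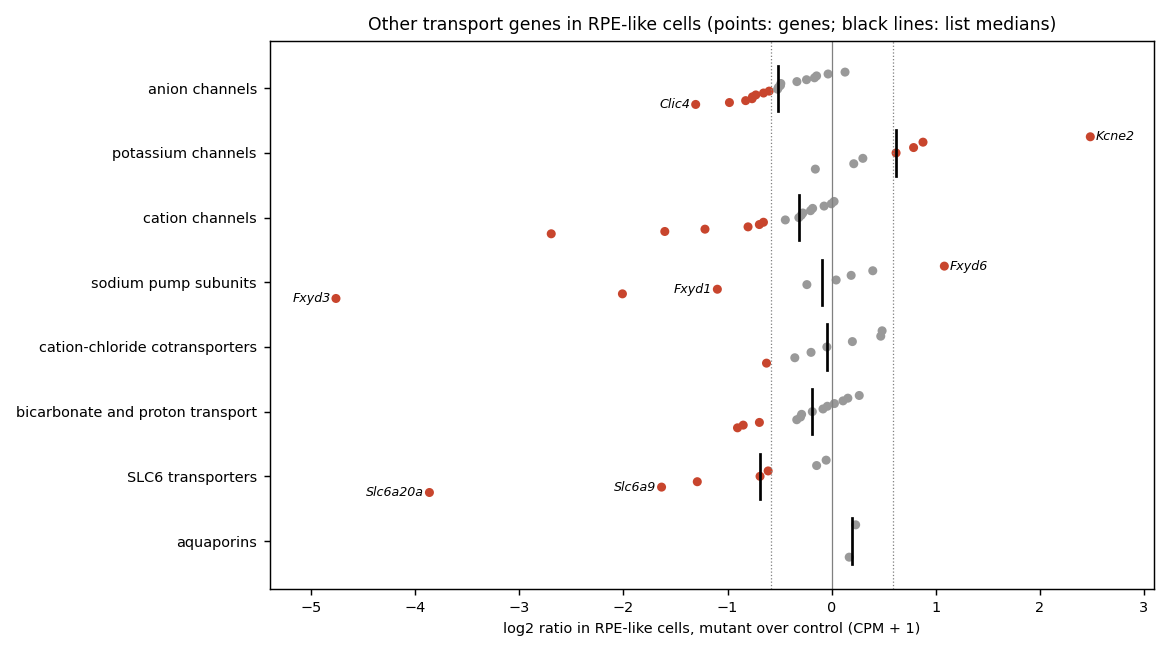
Log2 ratio of mutant over control in RPE-like cells (horizontal axis, CPM with 1 added) for the 77 measured genes of the transport lists, in red where past 1.5-fold (dotted lines) and grey otherwise, with black lines at list medians. The medians of the anion channel and SLC6 lists lie at -0.52 and -0.69, and that of the potassium channels at 0.62.

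The genes whose levels ran most like each of the 9 were found by Pearson's r of log2 levels over 24 points, 12 classes in each of 2 libraries, among 13567 genes. The points share libraries and classes, so r is a description. Nearest to Kcnj13 were Clic6 (r = 0.930), Crb3 (0.927) and Gsta3 (0.915), and nearest to Slc4a2 were Fuom (0.957), Bsg (0.932) and Rida (0.926). Nearest to Slc6a15 were Clec18a (0.903), Ggt1 (0.902) and Car14 (0.900), and to Trpm3 Ermn (0.905), Rbm20 (0.884) and Glul (0.881). Atp1b1 was nearest to Plxna1 (0.910), Tmem108 (0.858) and Palld (0.853), and Slc4a4 to Cyp1b1 (0.941), Gm26771 (0.912) and Fbln7 (0.912). Slc12a2 was nearest to Oat (0.908), Chrna1os (0.897) and Efemp1 (0.890), and Atp1b2 to Arl6 (0.914), Mtcl1 (0.905) and Magi2 (0.904). The values of Best1 were too low for a pattern to be read, with a best r of 0.721 (Slc44a5).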

How the data were processed

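Libraries of pooled eye cups, 1 per genotype, were measured with 10x Genomics 3′ chemistry. The authors counted UMIs with Cell Ranger 7.1.0 against GRCm38 (mm10), and the deposited matrices hold raw counts per gene and barcode without normalization. The matrix headers name software version 3.1.0. Groups followed the genotype label.

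Barcodes had to hold 200 genes or more, with mitochondrial UMIs at 15% or less. Doublets were removed with Scrublet (scanpy 1.11.5) at 0.8% per 1000 cells (1646 control and 1214 mutant barcodes). The 2000 UMI upper limit that the study states was not used, since 80.2% of control and 92.1% of mutant barcodes exceeded it, and was tried as an alternative. Clusters came from Seurat 5.3.0 in R 4.3.3 (integration, 30 components, resolution 1) with 169 genes withheld, among them the 9 genes, the transport lists and the RPE markers. Class names were rebuilt from marker lists with limits set after the clusters were seen, and 6 of 36 clusters stayed unnamed. UMIs were summed per class and library and scaled to CPM, with exact Poisson intervals. Log2 ratios had 1 CPM added, and their intervals are exact conditional Poisson intervals for the ratio without that addition. Shares had exact Clopper-Pearson intervals. All intervals are at 95% and cover counting error only, and the interval method was tested on simulated data. No test was possible with 1 library per genotype. The members and lists were chosen with earlier results of these data known. Named were all 9 genes, Myrf, the listed transport genes with at least 50 UMIs past 1.5-fold (at most 8 each way), a further pump subunit, and the 3 genes most like each of the 9. Overlapping genes and microRNA-204 were added after values were seen. Some listed genes that met this rule are not reported here.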

Additional observations from a re-analysis of the deposited data

Results flagged for a closer look

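In melanocyte-like cells Kcnj13 had a log2 ratio of 0.43 (interval 0.21 to 0.66) where the summed RPE-like cells had -0.75. The sign in RPE-like cells differed between settings. It was positive with cells thinned to 1000 UMIs (0.07), in cells of up to 2000 UMIs within the clusters (0.08) and in the pigment gate without Pax3, Mlana or Kit (0.19). It was negative under the 2000 UMI limit with clusters made again (-0.18) and in the gate without Pax3 alone (-0.64). No intervals were computed for these settings. Slc4a4 had a log2 ratio of -0.89 in mural-like cells (interval -1.39 to -0.47) and 0.33 in RPE-like cells. Of these mural-like UMIs, 168 of 173 in the control and 54 of 54 in the mutant were in 1 cluster led by genes that are not mural markers, such as Col10a1, where the ratio was -0.72. Each class was 1 sum per library, and neither difference was tested. The melanocyte-like sums rest on 30 and 18 cells.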

How the results depend on the processing

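Slc6a15 was higher in the mutant under all 20 other settings, with log2 ratios from 0.09 to 1.95. Kcnj13 ran from -0.95 to 0.19 and turned positive when cells were limited to 2000 UMIs within the clusters (0.081), thinned to 1000 UMIs (0.069) or gated on pigment genes without Pax3, Mlana or Kit (0.19). It stayed negative under the 2000 UMI limit with clusters made again (-0.18). Slc4a2 turned positive in cells of up to 4000 UMIs (0.13, interval -0.73 to 0.90) and in the gate without Pax3, Mlana or Kit (0.27). Atp1b2 did so under the 2000 UMI limit with clusters made again (0.18) or kept (0.18). These turns rest on shallow or thinned cells, and in that gate on 18 mutant cells with a median of 1123.5 UMIs. No change of direction can be read from them. The number of the 9 genes lower by 1.5-fold, 1 as reported, was 0 with a 5% mitochondrial limit, with either 2000 UMI limit, with thinning and with a mean over cells. It was 2 in cells of up to 4000 UMIs (Slc12a2 and Atp1b2), 2 in the gate without Pax3, Mlana or Kit (Trpm3 at -1.23 and Atp1b1 at -0.90), 2 in the gate without Pax3 alone (Kcnj13 and Atp1b2), and 3 in cells with Y-linked UMIs only (Kcnj13, Atp1b2 and Best1, the last on 1 and 0 UMIs, from which no ratio can be read). In the cluster left unnamed at resolution 2 the number higher was 2 (Slc6a15, and Best1 on too few UMIs to read). In cells with Xist only the number lower stayed at 1 but was Slc4a2 (-0.80), with Kcnj13 at -0.58 just inside the limit. The number higher was 2 under either 2000 UMI limit (Slc6a15 and Slc4a4), and the 1 higher in the first gate was Slc4a4 (0.95), with Slc6a15 at 0.09. Of the transport genes, 16 of 43 were lower at a minimum of 100 UMIs (9.05% of all genes), 11 of 99 were higher at a minimum of 5 UMIs (9.85%), and at 2-fold 10 of 77 were lower (5.02%) and 2 higher (2.59%). In cells of up to 4000 UMIs 12 of 27 were lower (24.6%). With thinning to 500 UMIs, 0 shares had intervals apart, that of Slc6a15 included. Myrf in cells of up to 4000 UMIs had 55 and 0 UMIs, at least 3.96-fold lower with a floor of 3 counts, and its log2 ratio of -6.93 there depends on the added CPM. The limit of 2000 UMIs within the clusters, the gate on Pax3 alone, that unnamed cluster and the depth split of the transport genes were added after the data were seen. The cause of these changes was not tested. No paired analysis was possible because each genotype had 1 library. Depth limits Best1 and the shallow cells of the mutant, which held 98616 UMIs in all.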
